A study of Mus musculus with 24 samples.

Results

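The 3 genes of the Myc family, Myc, Mycn and Mycl, were described together with the accessible sites around them. They are 3 of the 55413 genes of the GENCODE vM21 annotation. Accessibility was read from ATAC-seq, an assay in which a transposase cuts and tags DNA that is not packed into nucleosomes. For each gene, every site whose centre lay within 500 kb of one of its annotated starts was taken as a member, and sites within 1 kb of a start were described first. This gave 363 windows, each reaching 250 bp to either side of a peak summit, out of 233707 windows over the genome, with 91 around Myc, 132 around Mycn and 140 around Mycl. A window was kept when at least 2 of the 24 libraries had a peak in it, and membership used position only.

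All libraries came from E14 mouse embryonic stem cells in which the CTCF protein carried an auxin-inducible degron, so that the auxin IAA removes it. The CTCF lines were a control line ("oectrl", the overexpression control) without IAA and the same line after 12 h of IAA. They also held a line overexpressing wild-type CTCF and a line overexpressing mutated CTCF, both after 12 h of IAA. What the mutation alters is not given in the labels. The Chd4 set and the Chd8 set each held cells with the hairpin shluci and cells with shRNA1 or shRNA2 against the remodeller gene, all without IAA. The serum set held CTCF-degron cells without IAA and after 12 h of IAA, labelled as grown in serum, although a protocol shared by all libraries describes a medium free of serum. There were 2 libraries in each of 12 groups. Whether they were separate cultures is not given in the labels, so the spread between them may be technical. Neither the loss of CTCF protein nor the knockdown of Chd4 or Chd8 can be checked from peak lists.

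Myc, Mycn and Mycl encode related transcription factors that pair with Max and bind E-boxes near genes for growth, ribosome production and metabolism. In embryonic stem cells Myc and Mycn support self-renewal and can stand in for each other, while Mycl is the weakest transforming member of the family. The gene-poor region beyond Myc, with the long noncoding gene Pvt1, is known for tissue-specific enhancers of Myc, and CTCF bound at promoters and between domains is known to shape which enhancers reach a gene. CTCF itself acts as an insulator protein that stops loop-extruding cohesin.

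The sequences below are those on which the CTCF comparisons turned, so they are shown before the values. They are the reference letters (GRCm38) at the best match to the 14-letter CTCF consensus in windows that were lost with IAA, and in the window at the Mycl start. The match is in capitals with 8 flanking bases on each side, and names give the distance of the window centre from the nearest start of the gene.
Myc −2.18 kb, chr15:61983423-61983452, plus strand: ctctgtggCCAGTAGAGGGCACacttactt
Mycn −272.9 kb, chr12:13215011-13215040, minus strand: tatttttaCCACTTGGGGTCACttaaggat
Mycn +317.4 kb, chr12:12623118-12623147, plus strand: gctcatctCCAGAAGGTGGCGCtgtgcttt
Mycl −97.3 kb, chr4:122898488-122898517, plus strand: ttaaatcgCCACAAGATGGCAGccttgcca
Mycl −51.0 kb, chr4:122944564-122944593, plus strand: ccttactcCCAGTAGGTGGCGCtaaaagca
Mycl −14 bp, chr4:122995473-122995502, plus strand: gccgagggCCACCAGGTGGCGCggtggagg
Mycl +306.6 kb, chr4:123305868-123305897, plus strand: ccaagtagCCTCTAGATGGCAGtactactc
Mycl +392.9 kb, chr4:123392405-123392434, minus strand: cctgcaggCCAGAAGAGGGCACcagatcct
The windows at Myc −2.18 kb, Mycl −51.0 kb and Mycl −14 bp held the consensus with 0 mismatches. The window at Mycn −272.9 kb came within 2 mismatches, and the other 4 had 1. At most 1 mismatch was required to say that a window held the consensus, so Mycn −272.9 kb was counted as lacking it. It is shown because it was lost in both media, and other lost windows with 2 mismatches are not shown. A match with at most 2 mismatches was in 21.6% of all windows. It was in 13 of 17 windows of the 3 domains lost with IAA in either medium (76.5%), against 54.7% of such windows over the genome. The match lay 53 bp from the window's centre at Mycl −51.0 kb, 46 bp at Mycl +306.6 kb and 58 bp at Mycn +317.4 kb, and 150 to 230 bp from it in the other windows shown. A match is a description of letters and not a measured binding site.

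The 3 domains differed in their neighbours and in where their sites lay. Myc (ENSMUSG00000022346.15, chr15:61985391-61990374, plus strand, 6 annotated starts) had 10 other annotated genes starting within 500 kb, of which 0 were protein-coding. Mycn (ENSMUSG00000037169.15, chr12:12936093-12941914, minus strand, 3 starts) had 19, of which 2 were protein-coding, the RNA helicase gene Ddx1 and Nbas. Mycl (ENSMUSG00000028654.13, chr4:122995652-123002485, plus strand, 5 starts) had 30, of which 14 were protein-coding, among them Cap1, Ppt1, Mfsd2a, Trit1 and Pabpc4. By annotation, 48 of the 91 Myc windows were intronic and 24 intergenic, 87 of the 132 Mycn windows were intergenic, and the Mycl windows were spread over 38 promoter, 14 exon, 50 intron and 38 intergenic windows.

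Around Myc the windows lay mostly downstream. Within 1 kb of a start there was 1 window upstream and 4 downstream, and between 1 and 10 kb 4 upstream and 1 downstream. Between 10 and 50 kb from a start there was 1 window upstream and 7 downstream, between 50 and 100 kb 2 and 18, between 100 and 250 kb 4 and 35, and between 250 and 500 kb 1 and 13. Among the distances beyond 10 kb, the density downstream of Myc was highest from 50 to 100 kb, at 36 windows per 100 kb, and was 5.2 beyond 250 kb. Around Mycn the side changed with distance: 9 windows upstream and 38 downstream between 100 and 250 kb, but 28 upstream and 12 downstream beyond that. Mycl had 1 upstream window beyond 250 kb and 41 downstream. The CTCF consensus was in 1 Myc window, 1 Mycn window and 11 of the 140 Mycl windows (7.86%), where 5.57% of all windows held it. Windows called by all 24 libraries numbered 4 around Myc, 4 around Mycn and 8 around Mycl, or 4.40%, 3.03% and 5.71% (3.72% of all windows). The strongest window around Mycl by mean rank was the Cap1 promoter 109.3 kb upstream, and around Mycn the Nbas promoter 327.6 kb upstream, both called by all 24 libraries. Around Myc it was an intronic Pvt1 window 105.4 kb downstream (chr15:62092609-62093109), called by 22.

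**Figure D1:**
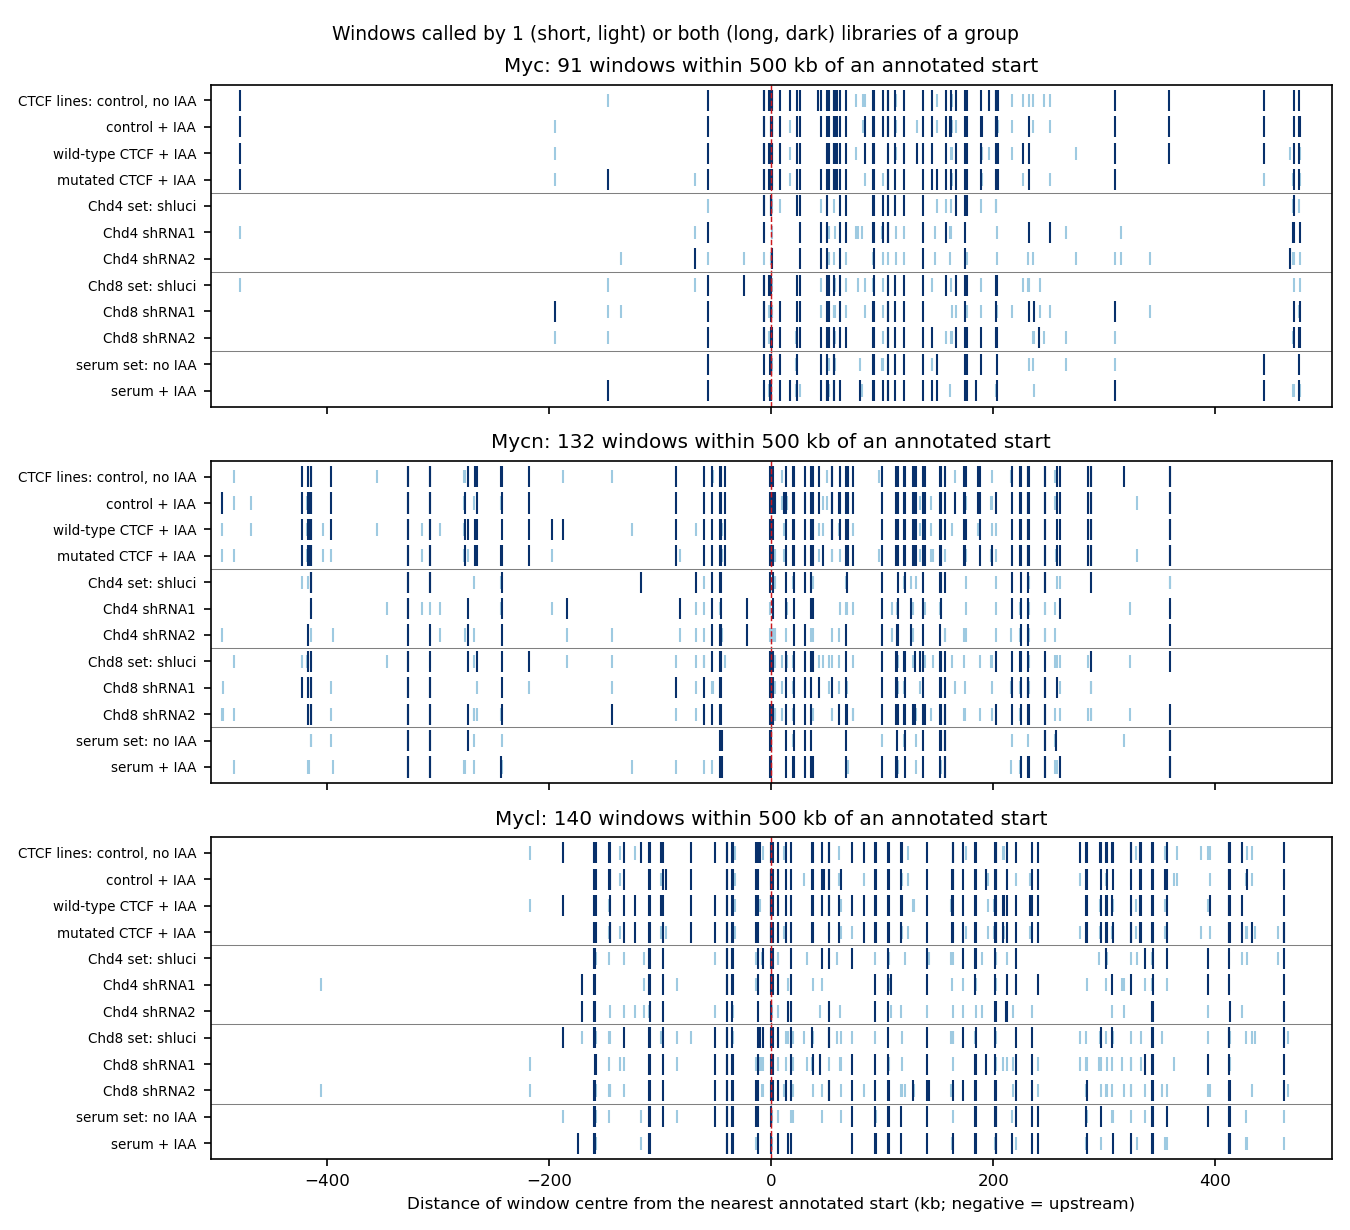
Windows within 500 kb of Myc, Mycn and Mycl by distance of their centre from the nearest annotated start in kb (horizontal, negative is upstream) and by group (rows); long dark ticks were called by both libraries of the group and short light ticks by 1. The Myc ticks lie mostly to the right of the start, those of Mycn on both sides, and Mycl has 1 window beyond 250 kb upstream.

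The measurement was the presence of a peak and its rank. List length ran from 120137 to 155087 peaks for the CTCF lines, 80619 to 141742 for Chd4, 135410 to 166697 for Chd8 and 59786 to 82502 for serum. Lists were cut within each set to the shortest list by the authors' −log10 p. A percentile below is the rank of a window's best peak in the cut list by that score, with the strongest peak at 100. Tests and the calls of lost and gained windows were made within a set, and values of different sets, whose lists differ in length, are only set side by side. Read depth was not given in the sources used here, so a window without a call is below the limit of that list, not closed. Of the windows called by either library of a group over the genome, both called 73.5% to 77.5% in the CTCF lines and 64.6% to 68.0% in serum. This share was 51.4% to 58.8% for the Chd8 groups and only 39.7% to 52.5% for the Chd4 groups. In 5 of the 8 CTCF-line lists the top peak had a −log10 p of 1743.5 to 1967.1, and in the other 3 (control with IAA replicate 1, and replicate 2 of both overexpressing lines) 450.2 to 483.6. The 5 lists shared a peak at 1 site on chromosome 1 where the other 3 had none, and whether all 8 lists were made in the same way was not tested. Promoters of the 6 stem-cell markers Pou5f1, Sox2, Nanog, Esrrb, Zfp42 and Tdgf1 were called by 21 to 23 of the 24 libraries, and 5 of 10 promoters of marker genes of other cell types by 0 (Alb, Apoa2, Myh6, Cd3e and Neurod2), while the fibroblast gene Col1a1 was called by 24.

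The start of Mycl was called in every library, the start of Myc in nearly every one, and the surroundings of the Mycn start in every library outside the Chd4 set. Taking any window within 1 kb of a start, Mycl was called by 24 libraries, Myc by 23 and Mycn by 19. The Myc library without a call was replicate 2 of Chd4 shRNA1. For comparison, 24% of 21911 protein-coding promoters were called by all 24 libraries.

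Myc had 5 windows at its starts. In the 8 CTCF-line libraries the deposited peaks within 1 kb of a Myc start covered 1894 to 3205 bp, and the best of them ranked from the 63.1 percentile to the 82.0 percentile. In the serum set they covered 1647 and 1133 bp without IAA and 992 and 872 bp with it. In the Chd4 set they covered 0 to 529 bp in short separate peaks. The window 391 bp upstream of the first start (chr15:61984750-61985250) was called by all 12 libraries of the CTCF lines and the serum set. The windows 140 bp and 407 bp downstream of internal Myc starts were called by all 8 CTCF-line libraries but, in serum, by 1 and 0 of 4. These sets differ in peak number and medium, which cannot be told apart here.

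Mycn had 2 start windows, one 733 bp upstream (chr12:12942397-12942897) and one at the first start (chr12:12941586-12942086). The window at the start itself ranked at 35.2 and 33.6 in the control line without IAA, at 53.3 and 53.0 with IAA, and from 42.6 to 54.0 in the overexpressing lines. In serum it ranked at 22 and 34.2 without IAA and was called by 1 of 2 libraries with it, at 44.6. It was called by 0 of 6 Chd8-set and 0 of 6 Chd4-set libraries, so the calls near Mycn in the Chd8 set came from the upstream window. The upstream window ranked at 88.8 and 87.7 in the control line without IAA, and at 92.1 and 90.4 with IAA. In serum it ranked at 29.7 and 35.4 without IAA and at 50.4 and 74.1 with it, so it was higher with IAA in both media with no overlap. In the Chd8 set it ranked at 59.7 and 73.2 with shluci, 91.8 and 63.7 with shRNA1, and 97.8 and 96.4 with shRNA2. In the Chd4 set it was called by 0 of 2 shluci libraries, 0 of 2 shRNA1 libraries and 1 of 2 shRNA2 libraries, at 30.4. Of 11698 protein-coding promoters called by all 18 libraries outside the Chd4 set, 425 (3.63%) were called by at most 1 of its 6 libraries, and Mycn was among these.

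The letters before the first Mycn start are shown because they lie in the start window that all 8 CTCF-line libraries called and no library of the Chd sets did. The upstream window lies outside them. They run from chr12:12941915 to 12942086 on the minus strand, 172 bases from RefSeq's promoter table (GRCm38.p6), and capitals mark GGGCGG, TTTGGCGC and TTTCGCGC on either strand.
Mycn promoter: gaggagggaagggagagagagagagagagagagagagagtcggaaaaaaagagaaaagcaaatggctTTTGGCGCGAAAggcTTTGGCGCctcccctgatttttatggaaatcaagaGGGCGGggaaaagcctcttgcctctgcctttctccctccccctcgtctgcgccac
TTTGGCGC, an E2F-type motif, occurred 2 times, and 0.26% of 32851 promoters held it in the same stretch of 172 bases. TTTCGCGC occurred 1 time, overlapping the first TTTGGCGC on the other strand, and 0.17% of promoters held it. GGGCGG, the core of the GC box, occurred 1 time, against 19.8% of promoters. The E-box CACGTG and the letters CCAAT were not found in this stretch. Mycl had its own entry in that table, and Myc did not.

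Mycl had 5 start windows, of which the window at the first start (chr4:122995388-122995888) was called by all 24 libraries. It ranked at 89.9 and 89.6 in the control line without IAA, and at 82.2 and 71.0 with IAA. In the wild-type line with IAA it ranked at 73.6 and 82.9, and in the mutated line at 75.8 and 74.8. In serum it ranked at 85.2 and 89.7 without IAA and at 67.2 and 60.2 with it. The Mycl start, which holds the exact CTCF consensus shown above, was thus lower with IAA in both media with no overlap between groups, and all 4 libraries of the 2 overexpressing lines stayed below the control line without IAA. The authors' fold at this peak was 7.69 and 8.18 without IAA against 6.17 and 5.41 with it, and in serum 5.53 and 5.53 against 4.00 and 4.19. In the Chd sets the window ranked from 52.7 to 96.4.

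Shifts of rank of this kind were counted over all windows called by the 8 libraries with and without IAA in both media. Of 41738 such windows, 5.74% ranked lower in every IAA library in both media and 5.62% higher. Around Myc 1 of 21 was lower and 0 higher, around Mycn 0 of 22 were lower and 3 higher, and around Mycl 3 of 25 were lower and 2 higher. Those lower were Myc +174.8 kb, Mycl −14 bp and a pair of Mycl windows under 1 peak 105.5 and 106.2 kb downstream. Those higher were Mycn −733 bp, +20.2 kb and +156.1 kb and a pair at the Cap1 promoter upstream of Mycl. These windows were picked out after their ranks were seen.

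**Figure D2:**
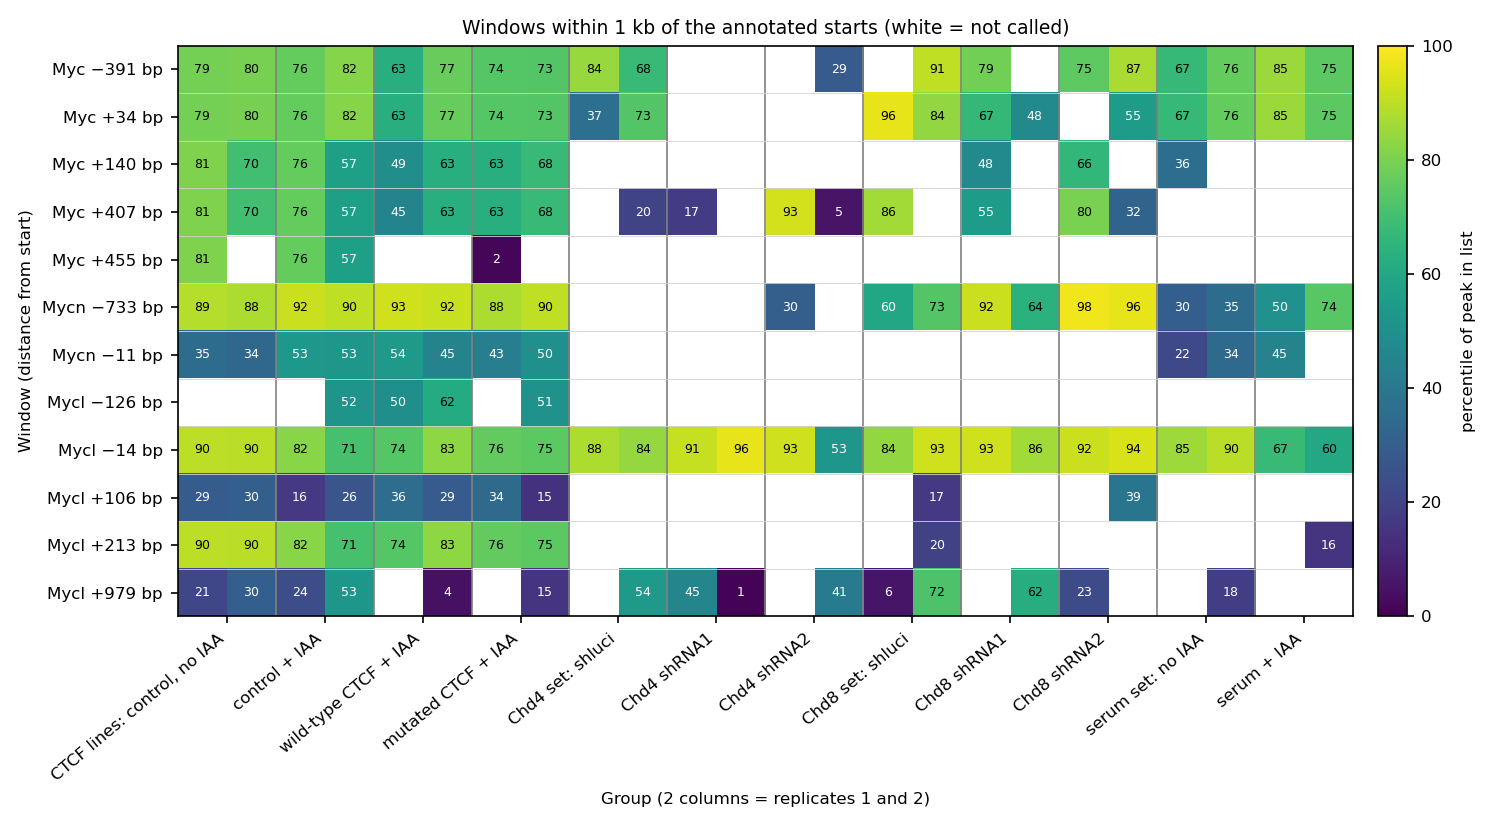
Percentile of the best peak (colour and number, higher is stronger) in each window within 1 kb of a start of Myc, Mycn or Mycl (rows) in each of the 24 libraries (columns, 2 per group); white means not called. The window at the Mycl start is filled in every column, both Mycn rows are white in the Chd4 set apart from 1 library, and the row at the Mycn start is white in the Chd8 set too.

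Over the whole domains, the number of windows called with and without IAA is given per library. With 2 libraries a group no exact permutation test of it can reach 0.05. In serum-free medium the Myc domain had 59 and 54 called windows without IAA and 56 and 54 with it. The Mycn domain had 85 and 81, then 94 and 81 with IAA. The Mycl domain had a mean of 85.5 ± 4.95 (SD, n = 2) without IAA and 79.5 ± 0.707 with it, and 84.0 ± 2.83 and 84.0 ± 1.41 in the wild-type and mutated lines. In serum the Myc domain had 33 and 30 called windows without IAA and 38 and 42 with it, and the Mycn domain a mean of 34.5 ± 0.707 and then 45 ± 0.0, without overlap in either. Over all windows of the genome the mean number called was higher with IAA by 1.09% without serum and by 5.54% with it. The Mycl domain in serum had 46.0 ± 1.41 and 45.5 ± 4.95.

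Averaged over both media, the difference with IAA was 3.5 windows for Myc (exact permutation within media, two-sided p = 0.33), 7.5 for Mycn (p = 0.17) and −3.25 for Mycl (p = 0.33). The adjusted p was 0.6 for each of these 3 exact tests (Benjamini-Hochberg over 9 domain tests), and the smallest p that the 36 arrangements allow is 0.056. The Mycl difference turned to 2.25 when a peak had to cover 50% of a window. These exact tests therefore do not decide whether the 3 totals changed.

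**Figure D3:**
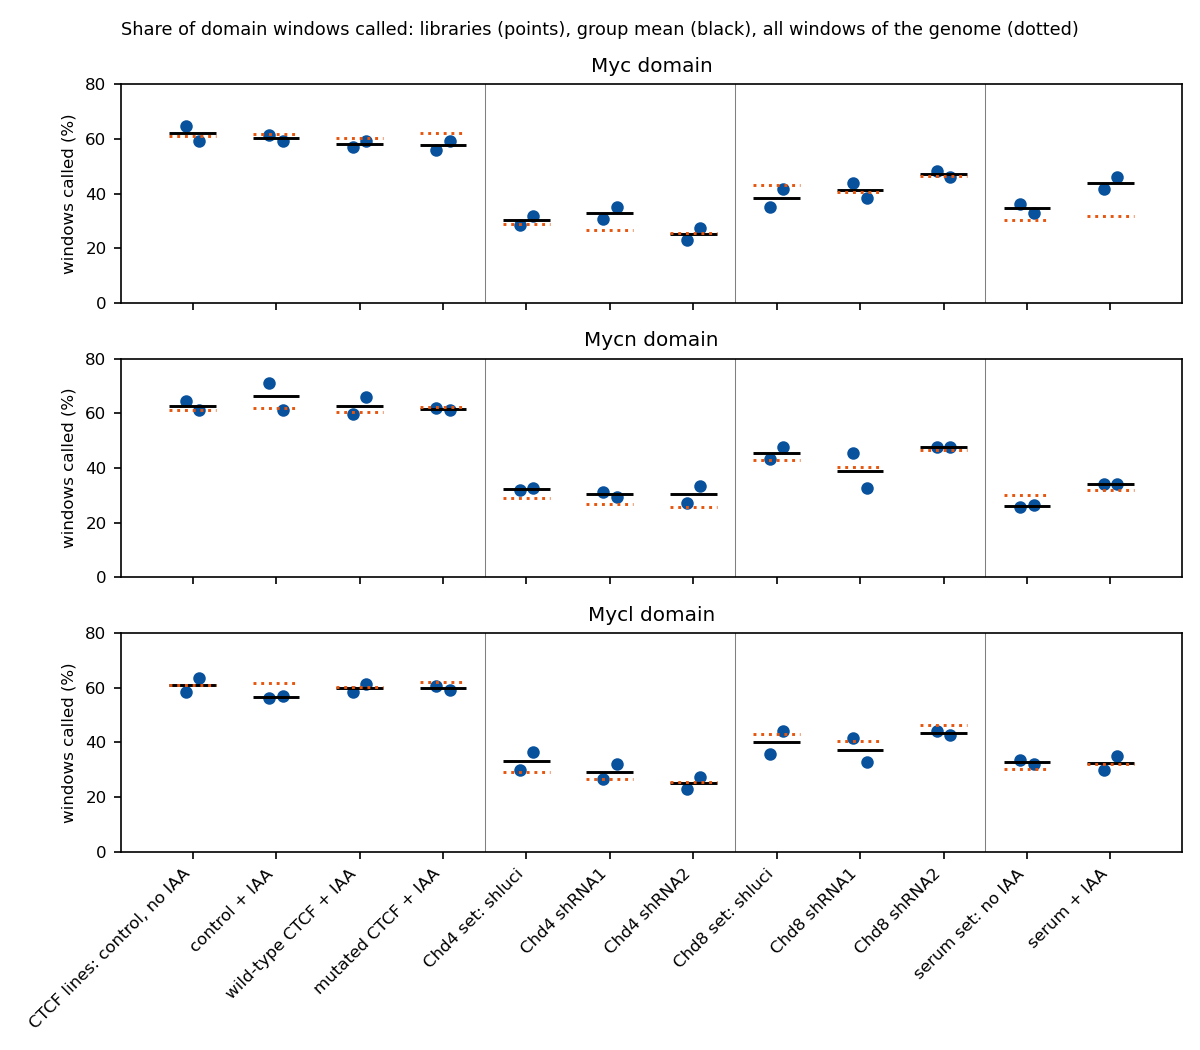
Share of each domain's windows called, in percent (vertical), for each library (points), with the group mean (black line) and the group mean over all windows of the genome (dotted line). The Myc and Mycn points with IAA in serum lie above both points without it, and the Mycl points with IAA in serum-free medium lie below those without it.

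Windows lost with IAA were those called by both libraries without IAA and by neither library with it. In serum-free medium 14 of 199 windows were lost (7.04%), which is near the background of 6.6% over the genome. These were 3 of 49 around Myc, 3 of 74 around Mycn and 8 of 76 around Mycl. In serum 5 of 87 were lost, 1 around Myc, 1 around Mycn and 3 around Mycl, where 8.58% of windows were lost over the genome. Leaving out a library relaxes the rule and gave 19 to 28 lost windows in serum-free medium and 9 to 17 in serum. With −log10 q of at least 10 there were 8 in serum-free medium and 1 in serum, and with 50% of a window covered 9 and 6. Without replicate 1 of the control line with IAA, the list whose top peak was low, 22 windows were lost in serum-free medium. Of the 10 windows with the consensus that both control libraries without IAA called, 4 were lost (34.8% over the genome), and of the 14 lost windows 4 held it (32.4%). In serum 3 of 6 such consensus windows were lost (40.8%), and all 6 lay around Mycl.

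Only 2 windows of the 3 domains were lost in both media, and they lay upstream of Mycl and of Mycn. They were 2 of the 81 windows that all 4 libraries without IAA called, or 2.47%, near the 3.04% over the genome. With −log10 q of at least 10 neither was lost in serum. The Mycl window 51.0 kb upstream (chr4:122944382-122944882, intergenic, 15358 bp from the nearest start, that of the lipid transporter gene Mfsd2a) ranked at 56.9 and 46.9 in the control line without IAA. It was absent from both libraries with IAA, and present at 52.3 and 40.3 in the wild-type line and 45.7 and 33.6 in the mutated line. In serum it ranked at 39.1 and 66.9 without IAA and was absent with it. This window held the exact consensus, and the peaks of the control line without IAA and of serum without IAA covered its 14 letters in all 4 libraries. In the wild-type line and in the mutated line the peak of replicate 1 covered these letters and that of replicate 2 did not. It was called by all 6 libraries of the Chd8 set and 2 of 6 of the Chd4 set, through peaks of 80 to 130 bp whose intervals did not include these letters.

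The Mycn window 272.9 kb upstream (chr12:13214602-13215102, intergenic, 14527 bp from the Ddx1 start) ranked at 62.0 and 77.6 without IAA and was absent with it. It was present at 60.1 and 63.3 in the wild-type line but in only 1 of 2 libraries of the mutated line, at 49.2. In serum it ranked at 68.6 and 61.3 without IAA and was absent with it. The authors' fold there was 8.06 and 12.4 in the control line without IAA. In the overexpressing lines the peaks were 156 to 190 bp long and covered the near-match to the consensus, while no Chd4 or Chd8 peak in the window covered it. In serum without IAA the peak of replicate 2 covered it and that of replicate 1 did not.

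Around Myc, the window 2.18 kb upstream (chr15:61982958-61983458, 94 bp from the start of the noncoding gene Gm37947) was the only one with the consensus. It ranked at 34.3 and 52.6 without IAA, was absent with IAA, and was called at 33.1 and 42.8 in the wild-type line and 16.3 and 15.7 in the mutated line. The peaks of 156 to 197 bp in these 6 libraries all covered the exact consensus, which stands at the window's edge. Chd8-set peaks in the same window ended short of it. In serum the window was not called without IAA and was called by 1 of 2 libraries with it, through a peak that covered the consensus. At deposited list length replicate 1 of serum with IAA also had a peak that covered it, at a fold of 2.04. The loss in serum-free medium stayed in 1 of 4 other settings, that of lists at deposited length. The other 2 Myc losses in serum-free medium, at +42.2 and +196.3 kb, ranked at no more than 26.7 without IAA and were in 0 and 1 library of the wild-type line. The 1 Myc loss in serum, +188.9 kb in Pvt1 (chr15:62176037-62176537), ranked at 23.7 and 26.5 without IAA and was called by all 8 CTCF-line libraries at 73.0 or more.

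Around Mycl, 3 further windows with the consensus were lost in 1 medium only. The window 306.6 kb downstream (chr4:123305679-123306179, intergenic, 8749 bp from the start of Pabpc4, a gene for a poly(A)-binding protein) ranked at 59.8 and 57.6 without IAA and was absent with it. It was called at 29.6 and 42.8 in the wild-type line and by 1 of 2 libraries of the mutated line, at 26.9. In serum it was called by 1 library without IAA and none with it. The window 392.9 kb downstream (chr4:123391967-123392467, in an intron of Macf1) was lost in serum, at 37.7 and 18.3 without IAA, and in the CTCF lines was called by 1 library without IAA and 1 of the wild-type line. The window 97.3 kb upstream (chr4:122898058-122898558, intergenic) ranked at 65.7 and 68.3 without IAA and at 46.7 and 34.6 with it in serum-free medium. In serum it ranked at 73.4 and 57.5 without IAA and was absent from both lists with it, and it was called by every library of the Chd sets, through peaks of 126 to 195 bp that did not cover the consensus. At deposited list length 1 of the 2 serum libraries with IAA called it, at a fold of 3.25.

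Other losses around Mycl lay without the consensus at the limit of 1 mismatch, although the windows at −187.3 kb and −10.3 kb came within 2. The window 187.3 kb upstream ranked at 53.4 and 51.3 without IAA, was absent with it, and had calls in both wild-type libraries, at 12.7 and 16.6, and in neither mutated one. The window 72.3 kb downstream ranked at 44.7 and 41.6 without IAA and was called by both wild-type libraries and 1 mutated library, but in serum it was called with and without IAA. The window 10.3 kb upstream ranked at 59.5 and 34.2 and was called by 1 wild-type library and no mutated one. Around Mycn, the loss 266.7 kb upstream had no consensus and was called by both libraries of both lines, at 23.8 and 31.3 and at 12.1 and 0.2. The loss 317.4 kb downstream had the consensus and was called by neither line.

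Set beside the 2 overexpressing lines, 8 of the 14 windows lost in serum-free medium had calls in both wild-type libraries (57.1%), 3 in 1 library and 3 in none. In the mutated line 4 were called by both (28.6%), 4 by 1 and 6 by none. Over the genome, 36.6% of lost windows had calls in both wild-type libraries and 28.1% in both mutated ones. By gene, both wild-type libraries called 1 of 3 lost windows around Myc, 2 of 3 around Mycn and 5 of 8 around Mycl, and both mutated libraries 1, 1 and 2. Of the 4 lost windows with the consensus, 3 were called by both wild-type libraries and 2 by both mutated libraries, where 45.8% and 34.4% of such windows were over the genome. The 2 called by both libraries of both lines were Myc −2.18 kb and Mycl −51.0 kb, those with the exact consensus, although at Mycl −51.0 kb 1 of 2 peaks in each line missed its letters. Of the 5 windows lost in serum, 4 were called by both wild-type (58.3% over the genome) and 3 by both mutated libraries (54.7%). The lost windows were chosen by their absence with IAA, so some return in any other library is built in, and the share over the genome is the measure of that. The difference between the lines was not tested, and without replicate 1 of the control line with IAA the counts called by both libraries were 13 and 7. Without replicate 2 of the wild-type line or of the mutated line they were 10 and 8. With lists at 50% of the shortest they were 5 and 5.

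**Figure D4:**
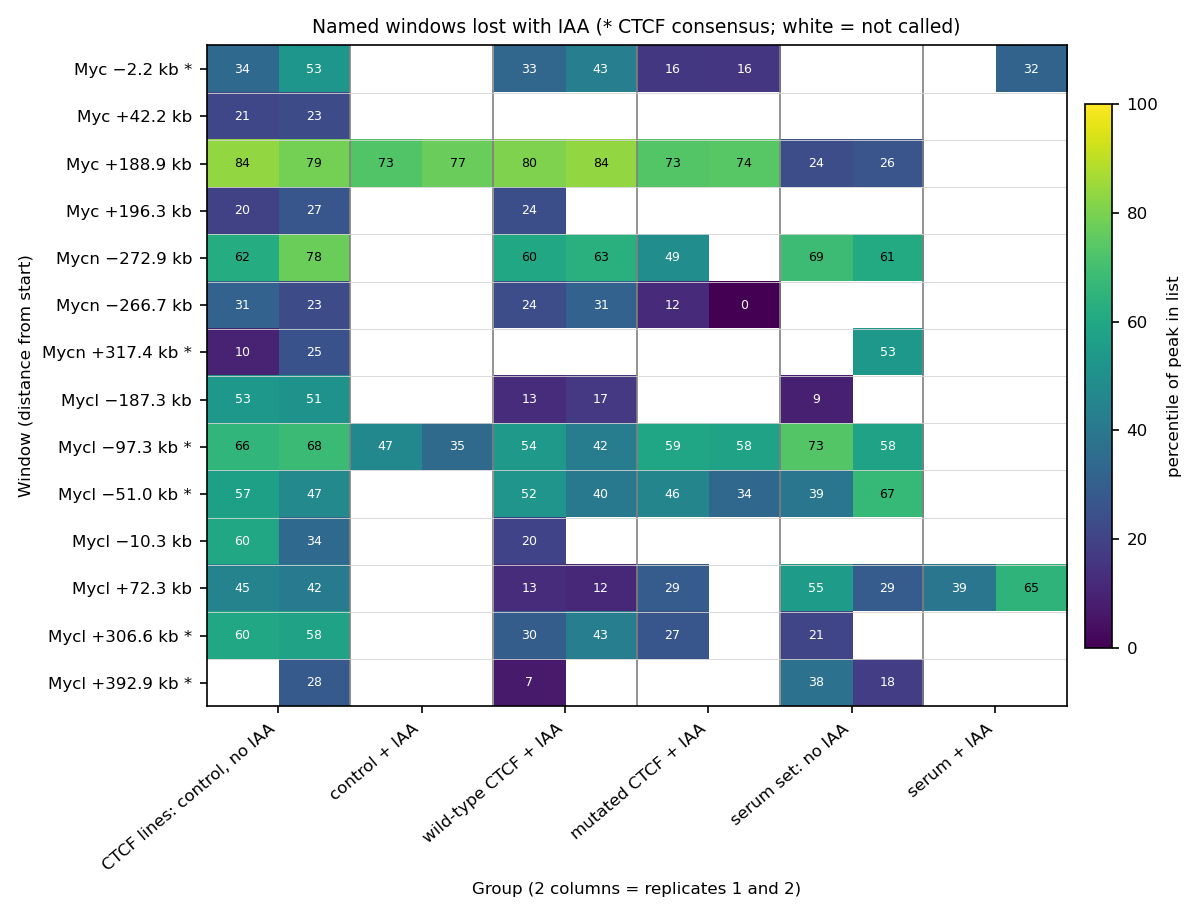
Percentile of the best peak (colour and number, higher is stronger) in the windows named as lost with IAA (rows, with distance from the Myc, Mycn or Mycl start; an asterisk marks the CTCF consensus) in the CTCF lines and the serum set (columns, 2 libraries per group); white means not called. The control columns with IAA are white except at Myc +188.9 kb and Mycl −97.3 kb, which were lost in serum only.

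Windows gained with IAA were called by both libraries with it and neither without it. In serum-free medium 15 of 112 windows were gained, 3 around Myc, 6 around Mycn and 6 around Mycl, where 9.38% were gained over the genome. In serum 12 of 226 were gained, 4 around Myc, 6 around Mycn and 2 around Mycl (3.54% over the genome). One of the Mycn gains, 3.37 kb downstream of a start, lay in a Mycn exon. Of the 15 gained windows 2 had calls in both wild-type libraries and 3 in both mutated ones (20.1% and 34.1% over the genome). Of 99 windows that no library without IAA called in either medium, 0 were gained in both, where 0.247% were over the genome. The comparisons of either line with the control line share its 2 IAA libraries. Against these, the wild-type line gained 14 of 113 windows (8.1% over the genome) and lost 11 of 194 (4.82%), and the mutated line gained 7 of 113 (7.68%) and lost 8 of 194 (3.63%).

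In the Chd4 set, Chd4 being the ATPase of the NuRD remodelling complex, the strongest site around Myc ranked lower with shRNA1 and was absent with shRNA2. This Myc window, in a Pvt1 intron 105.4 kb downstream, ranked at 95.9 and 99.5 with shluci, at 41.2 and 13.0 with shRNA1, and was absent from both shRNA2 lists. In every other set this window ranked at 95.4 or more in all 18 libraries. The authors' fold there was 9.84 and 15 with shluci and 4.55 and 3.96 with shRNA1. At deposited list length 1 shRNA2 library called it, at the 4.7 percentile. Its shluci and hairpin values did not overlap, and the share of windows over the genome for which this holds was not counted. For comparison, 28.7% of windows called by both shluci libraries were lost with shRNA2 over the genome. This Myc window was called by both shluci libraries and no hairpin library in other settings. These were lists at 50% of the shortest, −log10 q of at least 10 and 50% of the window covered.

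Of the windows called by both shluci libraries, 4 of 20 around Myc, 3 of 32 around Mycn and 2 of 31 around Mycl were called by none of the 4 Chd4 hairpin libraries (14.2% over the genome). Among those whose shluci percentiles averaged at least 50, they were 3 of 17, 1 of 23 and 0 of 23 (8.92%). The Myc window at 23.5 kb downstream (chr15:62010679-62011179, intergenic) ranked at 55.2 and 56.4 with shluci. The window at 111.5 kb (chr15:62098686-62099186), 93 bp from an internal Pvt1 start, ranked at 35.0 and 65.1, and the window 34 bp past an annotated Myc start at 36.6 and 73.1. With lists at deposited length, +34 bp was called by 1 of the 4 hairpin libraries and +111.5 kb by 2, while +23.5 kb stayed absent. All 3 were called by 17 or 18 of the 18 libraries outside the Chd4 set. Around Mycn the window 120.6 kb downstream (chr12:12819727-12820227, intergenic) ranked at 75.0 and 74.9 with shluci, was absent with both hairpins, and was called by all 18 other libraries. It had the highest mean shluci rank of the named windows absent from all 4 hairpin libraries. Mycn −117.5 kb and +288.2 kb, and Mycl −7.66 kb and +72.3 kb, made up the weaker losses named.

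Windows called by all 4 Chd4 hairpin libraries and no shluci library numbered 0 of 56 around Myc, 2 of 79 around Mycn and 1 of 78 around Mycl (1.92%). The Mycl window 170.1 kb upstream (chr4:122825278-122825778, intergenic) ranked at 87.8 and 60.8 with shRNA1 and at 75.4 and 71.2 with shRNA2. Outside the Chd4 set it was called by 1 library. With −log10 q of at least 10 or 50% of the window covered, no window named as lost or gained in all 4 hairpin libraries of either Chd set kept that call. The Mycn window 22.1 kb upstream ranked at 21.6 and 25.6 and at 80.7 and 38.5, and outside the Chd4 set by no library. The second Mycn window was the one 272.9 kb upstream that was lost with IAA in both media, at 90.2 and 56.5 with shRNA1 and 49.0 and 30.3 with shRNA2. These hairpin peaks overlapped those of the control line without IAA but not those of the overexpressing lines. At deposited length 1 shluci library also called this window, at the 21.1 percentile.

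By single hairpin, 6, 6 and 3 windows around Myc, Mycn and Mycl were lost with shRNA1 (24.1% of windows over the genome, here 15 of 83) and 6, 7 and 11 with shRNA2 (28.7%, here 24 of 83). The gains were 11 of 213 with shRNA1 (6%) and 9 of 213 with shRNA2 (6.08%). The count of called windows with both hairpins minus shluci was −1.0 for Myc, −2.5 for Mycn and −8.5 for Mycl, with exact two-sided permutation p-values of 0.733, 0.467 and 0.267 and adjusted p of 0.943, 0.7 and 0.6. Over the genome the mean number called differed by −9.75%. The smallest p of 2 against 4 libraries is 0.067. The Myc difference turned to 0.5 without shluci replicate 2 and to 0.833 without shRNA2 replicate 1. With −log10 q of at least 10, in lists that were not cut, the differences were −5.75 for Myc, −7.75 for Mycn and −5.75 for Mycl. The change over the genome at that setting was not computed. Calls at the 6 stem-cell marker promoters differed between the Chd4 groups: 11 of 12 possible calls with shluci, 8 with shRNA1 and 4 with shRNA2. The same count was not made over all promoters. Of protein-coding promoters called by both shluci libraries, 10.1% were lost with shRNA1 and 15.2% with shRNA2. What part the shift at the marker promoters had in the Myc and Mycn losses was not tested.

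In the Chd8 set, Chd8 being a remodeller that can bind CTCF and beta-catenin, few sites around the 3 genes were lost or gained with both hairpins. Of windows called by both shluci libraries, 1 of 23 around Myc, 0 of 40 around Mycn and 1 of 36 around Mycl were called by none of the 4 hairpin libraries (3.46%). They were Myc −25.0 kb, at 2.5 and 25.9 with shluci, and Mycl −187.3 kb, at 27.8 and 64.0. The Mycl window had also been lost with IAA in serum-free medium, but not through all the same intervals. Its shluci peaks (chr4:122808471-122808592 in replicate 1, chr4:122808330-122808425 in replicate 2) did not overlap each other. That of replicate 1 shared no base with the peaks of the control line without IAA. The 1 window gained in all 4 hairpin libraries (1.28%) was Myc +7.61 kb, at 13.0 and 57.9 with shRNA1 and 3.2 and 49.8 with shRNA2, which all 12 libraries of the CTCF lines and the serum set also called. By single hairpin, 11 of 99 windows were lost with shRNA1 (9.77%) and 6 of 99 with shRNA2 (7.35%), and 9 of 160 (4.55%) and 11 of 160 (8.1%) were gained. The Mycn window at −272.9 kb was called by both shluci and both shRNA2 libraries but by neither shRNA1 library. The differences in called windows were 5.25 for Myc, −2.75 for Mycn and 0.5 for Mycl (exact two-sided permutation p = 0.267, 0.933 and 1.0, adjusted p = 0.6, 1.0 and 1.0). All 3 changed sign under at least 1 other setting, and the values stand with the limits at the end.

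**Figure D5:**
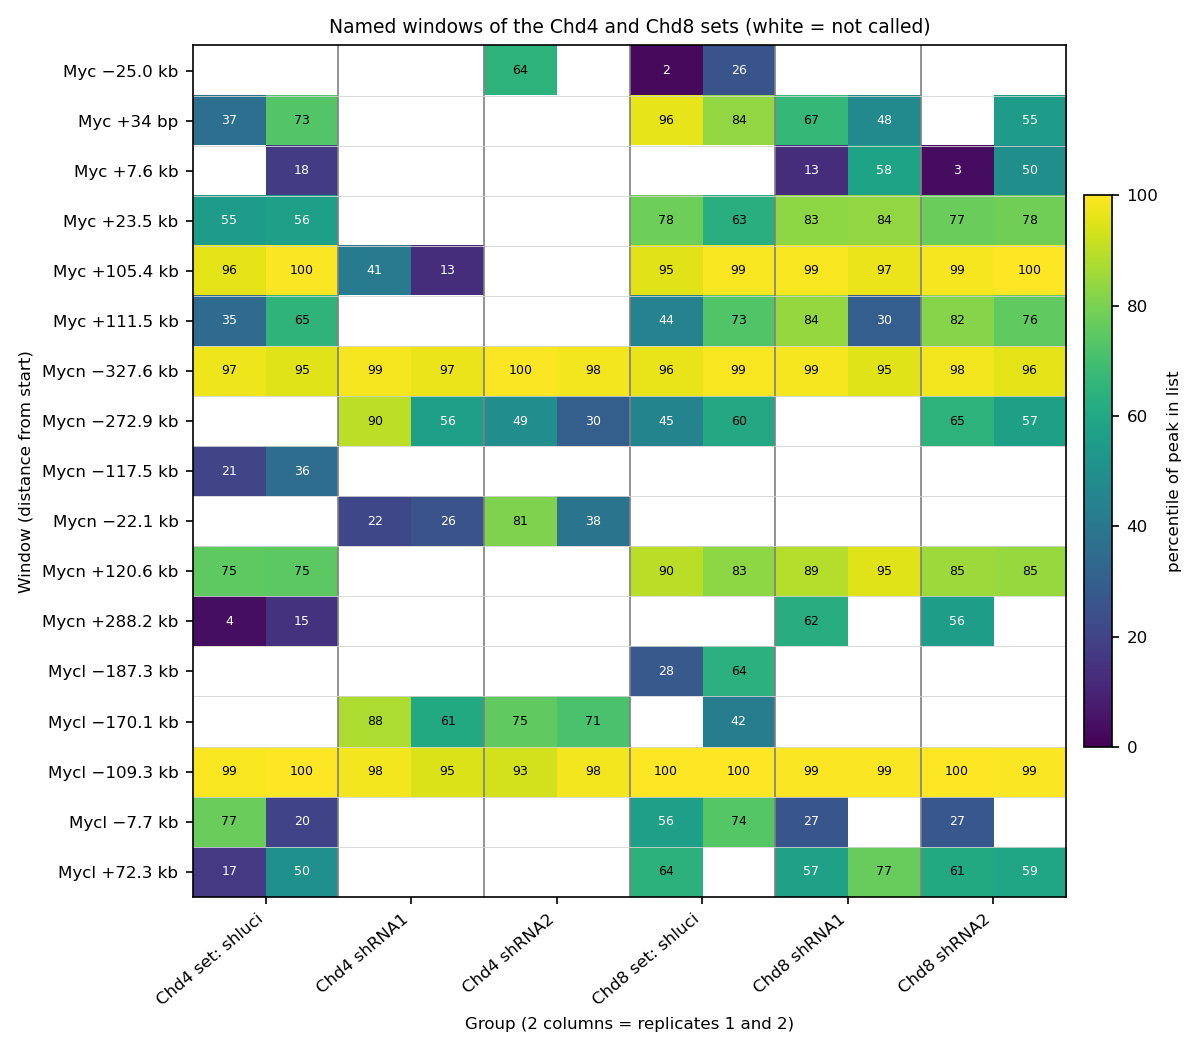
Percentile of the best peak (colour and number, higher is stronger) in the windows named from the Chd4 and Chd8 sets and in the strongest window of each domain (rows, with distance from the Myc, Mycn or Mycl start), for the 12 libraries of these sets (columns, 2 per group); white means not called. The Myc +105.4 kb row is at 95.9 and 99.5 with Chd4 shluci, lower with shRNA1 and white with shRNA2, and high throughout the Chd8 set.

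The promoters of 27 other genes of the Myc network were read in the same way. Of these, 10 were called by all 24 libraries (24% of protein-coding promoters). Among 11 partners and antagonists, 5 were called by all 24, including Mga, Mnt and Mxi1, while Max, the obligate partner, was called by 22 and missed 2 Chd4 hairpin libraries. Among 7 genes for cofactors and protein turnover 2 were, Trrap and the ubiquitin ligase gene Skp2, and among 9 target genes 3 were, including Odc1 and Cad. With IAA 0 of 27 promoters were lost in serum-free medium (0.528% over protein-coding promoters) and 0 of 26 in serum (0.889%). All 27 were called without IAA in serum-free medium, so none could be gained there (1.42%). In serum the promoter of the cyclin gene Ccnd2 was gained, called by 0 of 2 serum libraries without IAA and 2 of 2 with it (1.46%). With Chd4 shRNA1, 3 of 22 were lost (10.1%), those of the Myc antagonist Mxd1, the Mlx partner Mlxip and the cell-cycle kinase gene Cdk4. With Chd4 shRNA2, 6 of 22 were lost (15.2%), those of Mxd1, Cdk4, Ruvbl1, Usp28, Ncl and Nop56. With either Chd8 hairpin 0 of 25 were lost (1.14% and 0.86%). Like Mycn, Zbtb17, which encodes the Myc partner Miz1, was called by 0 of 2 Chd4 shluci libraries and 1 of 6 libraries of that set.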

How the data were processed

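Each of the 24 libraries had 1 narrowPeak list. Per the submitters' processing notes, Trim Galore, Bowtie2, MACS2 and deepTools were used with the mm10 build, without versions. The deposited fold is a ratio of signal at the summit to local background, and the deposited −log10 p and −log10 q are scores per peak. Across lists the minimum −log10 q was 1.301 to 1.311. Read depth was not estimated here, so no counting intervals are given.

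Windows reached 250 bp to either side of a summit and were laid over the genome without overlap, strongest percentile first. Of 405820, the 233707 called by at least 2 libraries were kept. Lists were cut within each set to its shortest list by −log10 p, and a peak overlapping a window by 1 bp or more called it. A window was lost when both reference libraries and no treated library called it, and gained when only both treated libraries did. Starts came from the comprehensive GENCODE vM21 annotation, on the same GRCm38 build as the lists. The CTCF consensus of 14 letters was searched on both strands with at most 1 mismatch. Called windows per domain were compared by exact permutation of library labels, within media for IAA. With 2 libraries against 2 no exact p can be below 0.33. The tests were checked on simulated data (Python 3.11.15, NumPy 2.4.6, pandas 2.3.3, SciPy 1.17.1, with figures from matplotlib 3.10.9).

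Named windows were those within 1 kb of a start, those lost or gained with IAA in both media, up to 5 lost per gene and medium by mean reference percentile, every lost window with the consensus, up to 3 lost and 3 gained per gene in all 4 hairpin libraries of a Chd set, and the strongest per gene. The members and lists were chosen with earlier results of these data known. The split of Chd losses at the 50 percentile and the count of rank shifts were added after seeing the data. Alternatives were lists at deposited length or at 50% of the shortest, −log10 q of at least 10, 50% of the window covered, other mismatch limits, each library left out, and replicate blocks.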

Additional observations from a re-analysis of the deposited data

How the results depend on the processing

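The 14 results over the 3 domains were recomputed under the alternatives that apply to each, with replicate blocks for the tested domain totals only. Of the resulting 155 values, 116 kept their direction or, for counts, stayed within 1.5 times the reported one, and 1 was 0.0 (Mycl with Chd8 hairpins, without shRNA1 replicate 1). The cause of the other changes was not tested unless given. The exact permutations allow no p for a domain total under 0.056 with IAA or 0.067 with Chd hairpins, so no setting could pass 0.05 by this test. This smallest p was reached with IAA for Myc with 50% covered (6.0 windows) and Mycn with lists at 50% of the shortest (8.0), for Mycn without control IAA replicate 2 (10.75) and for Mycl without serum IAA replicate 2 (−5.0). It was also reached for all 3 Chd4 differences with −log10 q of at least 10 (−5.75, −7.75 and −5.75 for Myc, Mycn and Mycl) and with 50% covered (−5.25, −7.25 and −6.25). The Chd4 differences were −3.25, −3.0 and −9.0 at deposited length and −4.75, −4.5 and −3.25 with lists at 50% of the shortest. The limit on −log10 q was applied to lists that were not cut. The change in calls over the genome was not computed under these settings. The Mycl difference with IAA became 2.25 with 50% of the window covered, and leaving out a library gave 2.25 to 4.75 for Myc, 4.25 to 10.75 for Mycn and −5.0 to −1.5 for Mycl. With a library left out, Chd4 differences ranged from −2.833 to 0.833 for Myc (0.5 without shluci replicate 2, 0.833 without shRNA2 replicate 1), −3.833 to −1.167 for Mycn and −13.0 to −4.0 for Mycl. The Chd8 differences had no stable sign. Myc became −1.75 with −log10 q of at least 10 and −1.5 with 50% covered. Mycn became 4.75 with lists at 50% of the shortest, 1.75 with −log10 q of at least 10, 2.75 with 50% covered, 0.25 without shluci replicate 2 and 2.0 without shRNA1 replicate 2. Mycl became −0.25 at deposited length, −0.75 with 50% covered, −5.5 without shluci replicate 1, −1.333 without shRNA2 replicate 1 and −0.667 without shRNA2 replicate 2. Left-out ranges for Chd8 were 2.25 to 8.25, −5.75 to 2.0 and −5.5 to 6.5.

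Lost windows in serum-free medium were 8 with −log10 q of at least 10 and 9 with 50% covered, against 14, and 28, 22, 22 and 19 without control replicates 1 and 2 and IAA replicates 1 and 2. In serum they were 1 with −log10 q of at least 10, against 5, and 14, 17, 9 and 10 without each library in turn. Those called by both wild-type libraries were 5 with lists at 50% of the shortest, 4 with −log10 q of at least 10 and 4 with 50% covered, against 8, and 9 to 13 with a library left out, the highest without control IAA replicate 1. Those called by both mutated libraries were 5 with lists at 50% of the shortest, 2 with −log10 q of at least 10 and 1 with 50% covered, against 4. They were 4 to 8 with a library left out. They were 7 without control replicate 1 or IAA replicate 1 and 8 without IAA replicate 2 or mutated replicate 2. Without control replicate 2 or mutated replicate 1 they stayed at 4. Leaving out a library means that fewer lists must lack or hold a window, so these counts cannot be lower. Lost windows with the consensus were 3 with −log10 q of at least 10, 2 with no mismatch and 13 with at most 2, against 6, and 6 to 8 with a library left out, an alternative chosen after seeing the data.

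Of 11 windows named as lost in serum-free medium, 11 stayed lost at deposited length, 3 with lists at 50% of the shortest, 6 with −log10 q of at least 10 and 4 with 50% covered. Mycn −272.9 kb and Mycl +306.6 kb stayed lost in all 4 settings, Mycl −51.0 kb in 3 and Myc −2.18 kb in 1. Of 5 named as lost in serum, 4, 2, 0 and 4 stayed lost in these settings, with Mycn −272.9 kb and Mycl −51.0 kb lost in 2 of 4 each. With lists at 50% of the shortest 1 of this pair, Mycn −272.9 kb, was lost in both media, and with 50% covered the other was. Of 8 windows named as lost with Chd4 hairpins, 5 stayed lost at deposited length, 2 with lists at 50% of the shortest and 0 in the other 2 settings. Of 3 gained with Chd4 hairpins 2, 1, 0 and 0 stayed gained. The 2 lost and the 1 gained with Chd8 hairpins stayed so at deposited length and in none of the other 3 settings.

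Same replicate numbers did not pair the libraries: correlations of replicate differences between groups of a set were −0.135 to 0.131. With the replicate block the exact p was 0.5, 0.25 and 0.375 for Myc, Mycn and Mycl with IAA, 0.778, 0.444 and 0.222 for Chd4 and 0.33, 1.0 and 1.0 for Chd8, which changed no call.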
